A study of Mus musculus with 16 samples.

Results

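The genes followed were Mlxipl, Slc2a5, Slc2a2, Khk, Pklr, Thrsp and Pnpla3, 7 of the 40840 gene symbols in a mouse liver count table. Each is linked to the transport, sensing or use of sugar. They were taken by symbol, and all 7 were found and passed the filter on low counts that left 14484 genes for testing. The set was chosen by the measured levels of Mlxipl and Slc2a5, which moved in opposite directions between the dosing times in wild-type mice, so the values of these genes in and against wild type are given as a description.

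Libraries were made from poly(A)-selected liver RNA of male C57BL/6J mice aged 12 to 16 weeks and fed a standard diet, per the labels. Their 4 groups of 4 libraries were CryDKO given the drug at circadian time 16 (CryDKO_CT16), CryDKO at circadian time 8 (CryDKO_CT8), wild type at circadian time 16 (WT_CT16) and wild type at circadian time 8 (WT_CT8). CryDKO mice are Cry1-/-Cry2-/- by their label, bred from Cry heterozygotes in C57BL/6J, and cryptochromes are repressors at the core of the circadian clock. All 4 groups had received oxaliplatin, a DNA-crosslinking platinum drug, at 12 mg/kg intraperitoneally in a dextrose solution on 3 consecutive days, although the series text also speaks of a single dose. All were held in light and dark of 12 hours each for 3 weeks and then in constant darkness from 3 days before the drug. An untreated group was not analysed here, no source names the hour at which livers were taken, and nothing in the labels ties each library to its own animal. The p-values therefore measure the spread between libraries, which may be technical.

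As background, ChREBP, the product of Mlxipl, is a transcription factor that sugar phosphates switch on in hepatocytes. With its partner Mlx it binds carbohydrate response elements, pairs of E-boxes, near genes of glycolysis, fructose breakdown and fat synthesis. Glucose enters hepatocytes through the transporter GLUT2 (Slc2a2), fructose enters intestinal cells through GLUT5 (Slc2a5), and ketohexokinase (Khk) traps fructose in the liver. Liver pyruvate kinase (Pklr), Spot14 (Thrsp) and the lipid droplet protein Pnpla3 are among the classical targets of ChREBP.

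Promoter stretches with a match are shown because they are the places where ChREBP or a clock factor of the same DNA-binding family could be looked for. RefSeq promoters of build GRCm38.p6, 250 bases before to 50 bases after each start, covered all 7 genes with 9 start sites, whereas the counts were made on GRCm39. On both strands the E-box CACGTG was found in 2 of the 7 genes and in 8.09% of 27025 genes (7.15% of 32851 promoters), and the carbohydrate response element, CANGNG and CNCNTG with 5 bases between them, was found in 1 of the 7 genes and in 0.64% of genes (0.557% of promoters). Capitals mark the match in each plus-strand sequence, and a match is a description of letters, not of binding.
Mlxipl, chr5:135089732-135089857: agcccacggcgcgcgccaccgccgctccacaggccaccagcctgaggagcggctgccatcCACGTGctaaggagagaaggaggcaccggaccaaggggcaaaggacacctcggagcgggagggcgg
Khk, chr5:30921476-30921505: agcgttccccgtCACGTGacaccgttaatc
Pklr, chr3:89136393-89136529: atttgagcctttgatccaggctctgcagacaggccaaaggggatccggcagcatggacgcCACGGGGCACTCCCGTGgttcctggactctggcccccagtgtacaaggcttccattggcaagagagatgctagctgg
The Mlxipl match begins at -98 from the upstream of 2 start sites that lie 17001 bases apart. In mouse an upstream start is known to make the short and highly active isoform ChREBP-beta, and counts per gene do not separate isoforms. The Khk match begins at -71 from its start site but lies inside an annotated exon of Khk. Exons of the gene cover 128 of the 250 bases before that site. The Pklr match begins at -170 from a start that lies inside the gene, where the element of the liver-type enzyme is known from rat.

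Library totals ran from 18083916 to 29934138 counts. Transcripts of Cry1 were higher in libraries labelled CryDKO (20.5 to 29.0 CPM, the count scaled by library total and a TMM factor) than in WT libraries (5.14 to 15.9 CPM), and those of Cry2 were lower (23.1 to 33.3 CPM in CryDKO, 39.9 to 58.9 CPM in WT); the part of either gene that was deleted was not analysed here, so these totals do not check the label. A list of 8 hepatocyte markers summed to 118000 to 181000 CPM in CryDKO_CT16, 117000 to 154000 in CryDKO_CT8, 64300 to 113000 in WT_CT16 and 59400 to 71100 in WT_CT8. A list of 12 Kupffer cell and macrophage markers summed to 137 to 238 CPM in CryDKO_CT16, 91.9 to 224 in CryDKO_CT8, 38.1 to 143 in WT_CT16 and 80.5 to 108 in WT_CT8. By genotype averaged over times, 6 of the 8 hepatocyte markers, 5 of the 12 macrophage markers and 5 of 9 stellate cell markers were higher in CryDKO and 0 of each list lower, where 22.9% of all tested genes were called higher. Of 5 cholangiocyte markers tested 2 were higher and 1 lower, and of 9 endothelial markers 1 was higher. Of 2 pancreas markers tested 1 was higher, Cela2a, and the other 4 pancreas markers were at 0 in every library. The part of these shifts in the results was not tested. In whole liver, fewer cells of a type and less RNA per cell cannot be told apart.

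Mlxipl, the sugar-activated factor itself, was the only gene of the set whose highest level lay in WT at CT8. Its CPM were 376, 283, 357 and 212 in CryDKO_CT16, 174, 438, 225 and 390 in CryDKO_CT8, 266, 204, 307 and 462 in WT_CT16, and 643, 891, 585 and 713 in WT_CT8. Every WT_CT8 library lay above every library of the other groups, whose ranges overlapped each other. Averaged over both dosing times the CryDKO minus WT difference was -0.61 ± 0.20 on the log2 scale (SE), with medians of 320 CPM in 8 CryDKO and 524 CPM in 8 WT libraries. It was -0.48 without WT_CT16 library 8, which had the highest Mlxipl of its group.

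Between dosing times within CryDKO the 4 libraries a side averaged 307 ± 74.9 CPM at CT16 and 307 ± 127 CPM at CT8 (SD, n = 4 each), a log2 difference of 0.00 with a 95% interval of -0.59 to 0.59. In WT the same difference was -1.19 ± 0.29 (SE), the value on which the gene was chosen. Against WT, CryDKO differed by -0.01 ± 0.28 (SE) at CT16 and by -1.21 ± 0.29 at CT8, with no overlap at CT8. The difference of those differences was 1.19 ± 0.40 for Mlxipl and -1.21 ± 0.37 for Slc2a5. Every value of these genes against WT, the average over times included, uses the libraries that chose them and carries no test.

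**Figure D1:**
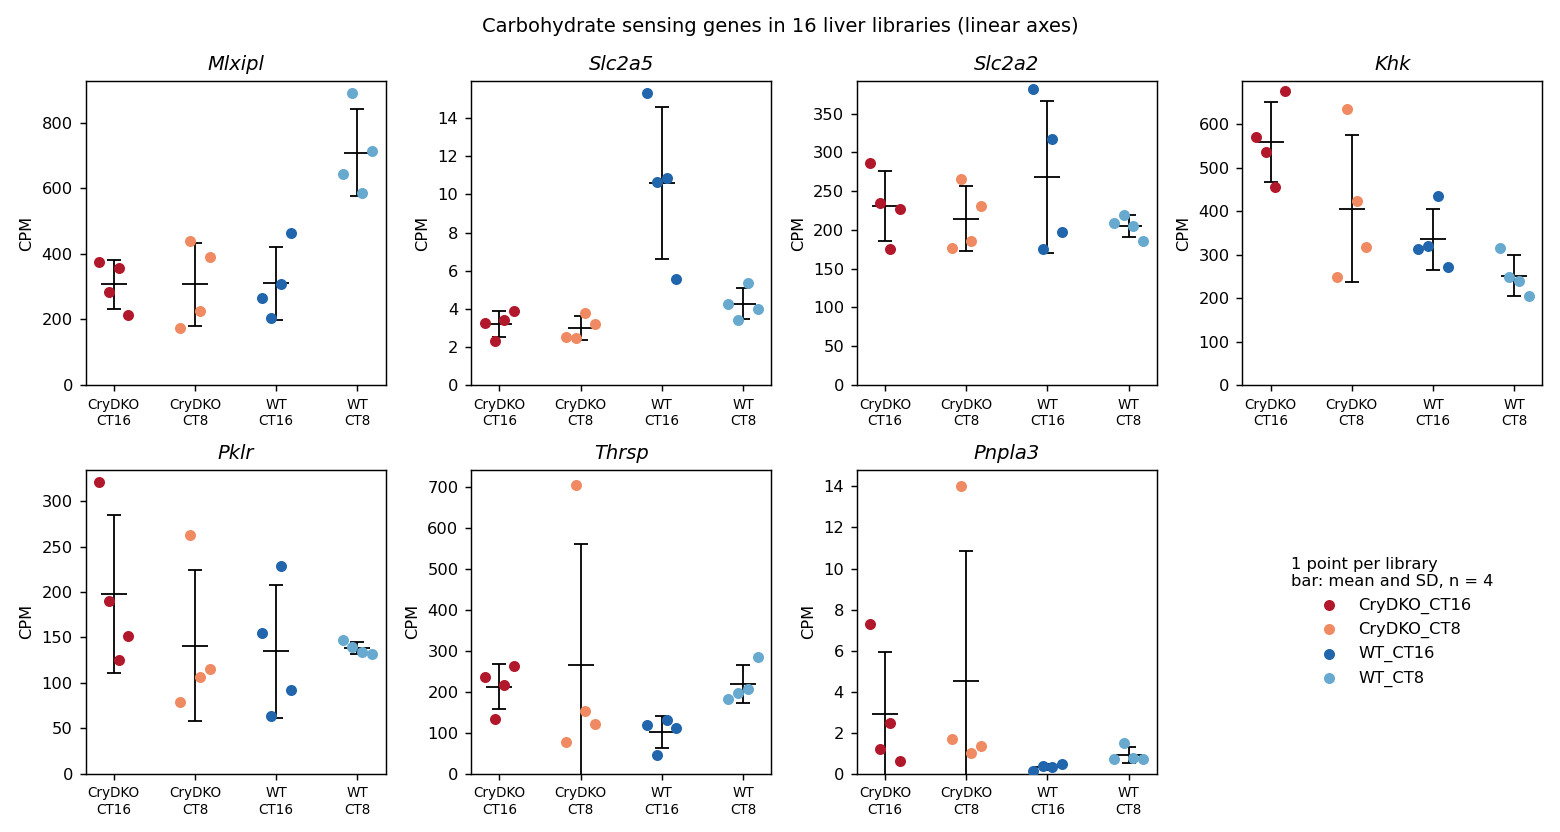
CPM of the 7 genes in each of the 16 libraries, with the mean and SD of 4 libraries per group; lower ends of SD bars below 0 are cut off at the axis. Mlxipl stands highest in the 4 WT_CT8 libraries and Slc2a5 in the 4 WT_CT16 libraries, while 1 CryDKO_CT8 library carries the highest Thrsp and Pnpla3.

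Neither the partner of ChREBP nor its relative Mlxip passed the test. Mlx, its obligate dimer partner, differed by 0.07 ± 0.17 (SE, adjusted p = 0.7515) and Mlxip, the related sensor MondoA, by -0.28 ± 0.19 (adjusted p = 0.2432) between CryDKO and WT averaged over times. Library 14 of CryDKO_CT16 had 3.995 CPM of Mlx, against 12.1 to 13.6 CPM in the other 3 libraries of its group, a value singled out after it was seen. Among 10 regulators of Mlxipl transcription or ChREBP activity, 5 rose, 1 fell and 4 did not pass in that comparison, where 47.1% of all tested genes were called, 22.9% higher and 24.2% lower. Ogt, the enzyme that adds O-GlcNAc to proteins, ChREBP among them, fell by 1.504 on the log2 scale (SE 0.17, adjusted p = 3.756e-06): its CPM were 48.7 to 66.8 in CryDKO_CT16, 44.2 to 73.3 in CryDKO_CT8, 76.6 to 198 in WT_CT16 and 168 to 262 in WT_CT8, and no CryDKO library reached a WT library. Hnf4a, a hepatocyte master regulator, rose by 0.77 ± 0.12 (adjusted p = 5.246e-05), as did Nr1h2 (LXR-beta) by 0.40 ± 0.10 (adjusted p = 0.002151) and Rxra, its dimer partner, by 0.43 ± 0.12 (adjusted p = 0.005996), of which Nr1h2 and Rxra lost their calls with library size alone. Hnf4a is also one of the hepatocyte markers whose sum was higher in CryDKO, and the part of that shift in these values was not tested. Scaled by library size alone, 1 of the 10 regulators rose and 2 fell, and without CryDKO libraries 10 and 11 there were 3 and 1.

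Slc2a5, the fructose transporter, was low throughout and highest in WT at CT16. Its CPM were 3.23, 2.30, 3.43 and 3.89 in CryDKO_CT16, 2.53, 2.47, 3.76 and 3.22 in CryDKO_CT8, 15.3, 10.7, 10.9 and 5.58 in WT_CT16, and 4.26, 3.44, 5.37 and 4.02 in WT_CT8, from 52 to 371 reads a library. All 4 WT_CT16 libraries lay above all others, and the 2 CryDKO groups overlapped each other and WT_CT8. Averaged over times the CryDKO minus WT difference was -1.12 ± 0.19 on the log2 scale (SE), with medians of 3.23 CPM in CryDKO and 5.47 CPM in WT, given with no test since the WT libraries chose the gene. GLUT5 is best known from the gut, so intestinal markers stand beside it. Their list summed to 9.53 to 27.3 CPM in CryDKO_CT16, 28.8 to 113 in CryDKO_CT8, 41.6 to 60.6 in WT_CT16 and 68.6 to 102 in WT_CT8. Of its 5 markers Sis was at 0 in every library, and Fabp2, an intestinal fatty acid binding protein that made up most of the sum, was the 1 of 3 tested that passed, lower in CryDKO (-1.01 ± 0.30, adjusted p = 0.01291). The other 2 tested were higher in CryDKO but did not pass, and the median log2 difference of the 3 was 0.53. The part of these markers in Slc2a5 was not tested.

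Between the times within CryDKO, Slc2a5 averaged 3.21 ± 0.669 CPM at CT16 and 3.00 ± 0.615 CPM at CT8 (SD, n = 4 each), a log2 difference of 0.10 with a 95% interval of -0.46 to 0.66. In WT the same difference, on which the gene was chosen, was 1.31 ± 0.26 (SE). As descriptions only, the CryDKO minus WT difference was -1.72 ± 0.26 at CT16 with no overlap and -0.51 ± 0.26 at CT8. Both Slc2a5 and Mlxipl had 1 WT group that stood alone and 3 groups that overlapped. WT_CT16 library 8 had the lowest Slc2a5 and the highest Mlxipl of its group; without it the WT differences between times were 1.56 for Slc2a5 and -1.41 for Mlxipl. Its scaling factor was 1.2, against 0.921 to 0.955 in the other 3 libraries of WT_CT16 and 1.13 to 1.24 in WT_CT8.

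Slc2a2, the main glucose transporter of hepatocytes, showed no difference beyond the spread. It averaged 231 ± 45.2 CPM in CryDKO_CT16, 215 ± 41.6 in CryDKO_CT8, 268 ± 97.9 in WT_CT16 and 205 ± 14 in WT_CT8 (SD, n = 4 each). The genotype difference averaged over times was -0.07 ± 0.15 (SE, adjusted p = 0.7162), with a 95% interval of -0.39 to 0.24, and it was 0.10 ± 0.22 between times within CryDKO. In WT_CT16 its 4 values split into 381 and 317 CPM in libraries 5 and 7 and 176 and 197 CPM in libraries 6 and 8. Among 11 hexose transporters 6 were expressed enough to test, and of the 5 besides Slc2a5 2 rose and 0 fell in CryDKO averaged over times, near the 47.1% called over all genes. Slc2a8, an intracellular hexose transporter, rose by 0.57 ± 0.10 (adjusted p = 0.0002273) and Slc2a1, the widespread glucose transporter GLUT1, by 0.56 ± 0.16 (adjusted p = 0.007075), while Slc2a9, a urate transporter, differed by 0.08 ± 0.12. Slc2a1 lost its call with library size alone.

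Khk, which makes fructose 1-phosphate, was higher in CryDKO. Its CPM were 571, 535, 455 and 676 in CryDKO_CT16, 249, 634, 424 and 318 in CryDKO_CT8, 313, 319, 435 and 272 in WT_CT16, and 315, 250, 239 and 205 in WT_CT8. All CryDKO_CT16 libraries exceeded all WT libraries, whereas CryDKO_CT8 overlapped both WT groups. Averaged over times Khk rose in CryDKO by 0.71 ± 0.17 (SE, adjusted p = 0.00183), with medians of 495 CPM in CryDKO and 293 CPM in WT, in 24 of 24 alternatives. Khk and Pnpla3 were the 2 of the 5 genes tested here that passed, both higher, and 2 of 5 is near the 47.1% of all genes called.

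At single times Khk was higher in CryDKO by 0.74 ± 0.24 at CT16 (adjusted p = 0.03459) and by 0.69 ± 0.24 at CT8 (adjusted p = 0.02661). Of the 5 genes tested, Khk and Pnpla3 passed at CT16, where 18.2% of genes were called, and Khk at CT8, where 39% were called. Besides Mlxipl and Slc2a5, CryDKO and WT did not overlap in 3 of 5 genes at CT16 (Khk, Thrsp and Pnpla3), where 19.8% of all genes did not, and in 0 of 5 at CT8, where 39.2% did not. Neither call of Khk was firm: it held in 15 of 25 alternatives at CT16 and in 17 of 25 at CT8. At CT16 it was lost with voom (adjusted p = 0.08963) and library size alone (0.06853), and in 8 of the analyses without 1 library, those without WT_CT8 libraries 2 or 3, WT_CT16 libraries 5, 6 or 8 and CryDKO_CT16 libraries 11, 12 or 14. At CT8 it was lost with library size alone (0.2404), with only the 2 groups fitted (0.05481) and without WT_CT8 libraries 2, 3 or 4 or CryDKO_CT8 libraries 10 or 15, as well as without libraries 10 and 11 together (0.1605). Without library 10 it was 0.40 (adjusted p = 0.1498). Within CryDKO the CT16 minus CT8 difference of Khk was 0.46 ± 0.24 (adjusted p = 0.7828).

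Of the 6 genes of fructose uptake and breakdown besides Slc2a5, 3 rose, 0 fell and 3 did not pass in CryDKO averaged over times, near the 47.1% of all genes called. Tkfc, the triokinase that phosphorylates glyceraldehyde, rose by 0.98 ± 0.24 (adjusted p = 0.002872), with 457 to 775 CPM in CryDKO_CT16, 247 to 625 in CryDKO_CT8, 135 to 438 in WT_CT16 and 207 to 345 in WT_CT8. Glyctk, which phosphorylates glycerate, did not pass (0.05 ± 0.10). The count of 3 higher was also obtained with library size alone and without libraries 10 and 11. In the polyol pathway, which makes fructose from glucose, aldose reductase Akr1b3 rose by 1.00 ± 0.14 (adjusted p = 1.772e-05), with 7.19 to 10.9 CPM in CryDKO and 2.82 to 6.39 CPM in WT libraries, and Sord, the sorbitol dehydrogenase after it, missed the threshold at 0.32 ± 0.14 (adjusted p = 0.05696).

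**Figure D2:**
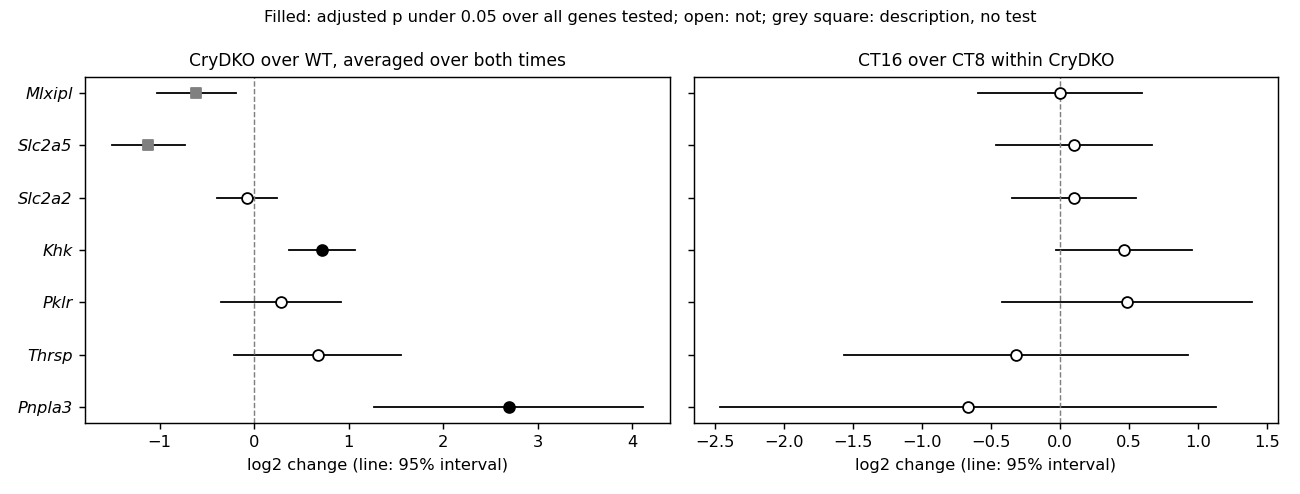
Log2 change of the 7 genes with its 95% interval, CryDKO over WT averaged over both times (left) and CT16 over CT8 within CryDKO (right), with filled points for adjusted p under 0.05 over all tested genes and grey squares for the 2 genes given with no test on the left. On the left Khk and Pnpla3 lie above 0 with filled points and the squares of Mlxipl and Slc2a5 lie below 0; on the right all 7 intervals include 0.

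Pklr, the last enzyme of glycolysis in liver, varied more within groups than between them. Its CPM were 321, 190, 125 and 152 in CryDKO_CT16, 78.8, 263, 106 and 115 in CryDKO_CT8, 155, 63.5, 228 and 92.2 in WT_CT16, and 148, 140, 134 and 132 in WT_CT8. The WT_CT8 libraries lay close together, and the other 3 groups each spread on both sides of them. Genotype averaged over times gave 0.29 ± 0.30 (SE, adjusted p = 0.4481), with a 95% interval of -0.35 to 0.93, and the sign turned without libraries 10 and 11 (-0.12). The 3′ end of Pklr overlaps that of Hcn3 on the opposite strand by 41 bases in RefSeq, and since the strand setting of the counts is unknown, reads there cannot be assigned with certainty. Slc2a2 and Pnpla3 likewise overlap other RefSeq genes, 1700112D23Rik for Slc2a2 and Mir6392 and Gm20369 for Pnpla3.

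Many glycolytic genes around Pklr were called higher in CryDKO, although the summed CPM of their list overlapped between genotypes. The sum ran from 7491 to 9498 CPM in CryDKO_CT16 and from 7670 to 10490 in CryDKO_CT8. In WT_CT16 it ran from 4689, in library 8, to 8264, and in WT_CT8 from 5156 to 5549. Of 18 glycolytic genes 12 rose, 1 fell and 5 did not pass in CryDKO averaged over times, with a median of 0.83 against -0.01 over all genes, where 22.9% of all genes were called higher. Phosphoglycerate kinase Pgk1 rose by 1.10 ± 0.12 (adjusted p = 1.235e-06), the liver phosphofructokinase Pfkl by 0.97 ± 0.12 (adjusted p = 3.682e-06), the mutase Pgam1 by 0.88 ± 0.11 (adjusted p = 4.306e-06) and aldolase C by 0.95 ± 0.13 (Aldoc, adjusted p = 1.277e-05). Pgk1 had 406 to 555 CPM in CryDKO_CT16, 401 to 503 in CryDKO_CT8, 199 to 304 in WT_CT16 and 151 to 197 in WT_CT8, with no overlap between genotypes. Pfkfb2, which sets the level of the activator fructose 2,6-bisphosphate, was the 1 gene that fell (-0.71 ± 0.15, adjusted p = 0.0008597). With library size alone 11 rose and 2 fell, and without libraries 10 and 11 the counts stayed at 12 and 1. At single times 6 rose and 0 fell at CT16, where 9% of all genes were called higher, and 13 rose and 1 fell at CT8, where 18.7% were.

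Of 6 gluconeogenic genes, the reverse route, 4 rose and 0 fell, where 22.9% of all genes were called higher, with pyruvate carboxylase Pcx at 0.81 ± 0.14 (adjusted p = 0.0001185), mitochondrial Pck2 at 0.86 ± 0.18 (adjusted p = 0.0007409), the glucose 6-phosphate carrier Slc37a4 at 0.60 ± 0.15 (adjusted p = 0.003661) and Fbp1 at 0.37 ± 0.14 (adjusted p = 0.03934); Fbp1 held its call in 13 of 24 alternatives. Of 8 genes of glucose phosphorylation and release, 2 rose, Slc37a4 and Hk1 (0.82 ± 0.22, adjusted p = 0.005607), and 6 did not pass, a share near the background. Hk1 lost its call with library size alone (adjusted p = 0.08021).

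Thrsp, which encodes Spot14, had its values spread by 1 library. Its CPM were 237, 135, 217 and 263 in CryDKO_CT16, 78.4, 706, 154 and 121 in CryDKO_CT8, 118, 44.9, 131 and 112 in WT_CT16, and 183, 197, 207 and 286 in WT_CT8. CryDKO_CT16 lay above WT_CT16 without overlap, and in CryDKO_CT8 library 10 had 5.85 times the median of the other 3, which all lay below WT_CT8. Averaged over times the genotype difference was 0.67 ± 0.41 (SE, adjusted p = 0.1942), with a 95% interval of -0.21 to 1.56, and 0.09 without library 10. At CT16 the difference was 1.07 ± 0.58 (adjusted p = 0.2227), past the threshold in 3 of 25 alternatives, 1 of them without library 10 (adjusted p = 0.02128). At CT8 it was 0.28 ± 0.58 (adjusted p = 0.7266) with library 10 and -0.88 without it (adjusted p = 0.04688). Whether the genotype effect on Thrsp differs between times was tested as an interaction, 0.79 ± 0.82, which did not pass (adjusted p = 0.7046); none of the 5 genes tested for it did, where 0.0414% of all genes were called, 6 genes by edgeR (134 by DESeq2 and 961 by voom).

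Pnpla3, whose protein sits on lipid droplets and is induced by carbohydrate feeding, was counted from few reads in most libraries and had the largest genotype difference of the 7 genes. Its CPM were 7.29, 1.19, 2.46 and 0.615 in CryDKO_CT16, 1.70, 14.02, 0.996 and 1.34 in CryDKO_CT8, 0.124, 0.360, 0.331 and 0.488 in WT_CT16, and 0.698, 1.49, 0.755 and 0.713 in WT_CT8, from 3 to 312 reads a library. All CryDKO_CT16 libraries exceeded all WT_CT16 libraries, while CryDKO_CT8 and WT_CT8 overlapped. Averaged over times it rose by 2.69 ± 0.66 (SE, adjusted p = 0.004643), with medians of 1.52 CPM in CryDKO and 0.593 CPM in WT. Without libraries 10 and 11, which held 10.5 and 6.1 times the median of the other libraries of their groups, the rise was 1.32 (adjusted p = 0.005231), and the call held in 23 of 23 alternatives. Pnpla3 was not tested in the alternative filter on a mean of at least 50 reads.

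At single times Pnpla3 was higher in CryDKO by 3.10 ± 0.99 at CT16 (adjusted p = 0.04411) and by 2.29 ± 0.89 at CT8, which missed the threshold (adjusted p = 0.05407). The CT16 call held in 13 of 24 alternatives and was lost without library 11 (2.08, adjusted p = 0.1389). Without library 10 the CT8 difference was 0.56 (adjusted p = 0.4992). In WT the CT16 minus CT8 difference was -1.47 ± 1.00 for Pnpla3 (adjusted p = 0.3624) and -1.11 ± 0.58 for Thrsp (adjusted p = 0.2429), neither past the threshold, although the WT groups did not overlap in either gene. Besides Mlxipl and Slc2a5, which that contrast chose, these were 2 of 5 genes without overlap, where 12.6% of all genes did not overlap and 2.53% passed the adjusted threshold. None of the 7 genes passed between times within CryDKO, where 0% of genes were called by edgeR; 938 genes had an unadjusted p under 0.05 there, and DESeq2 called 14.

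**Figure D3:**
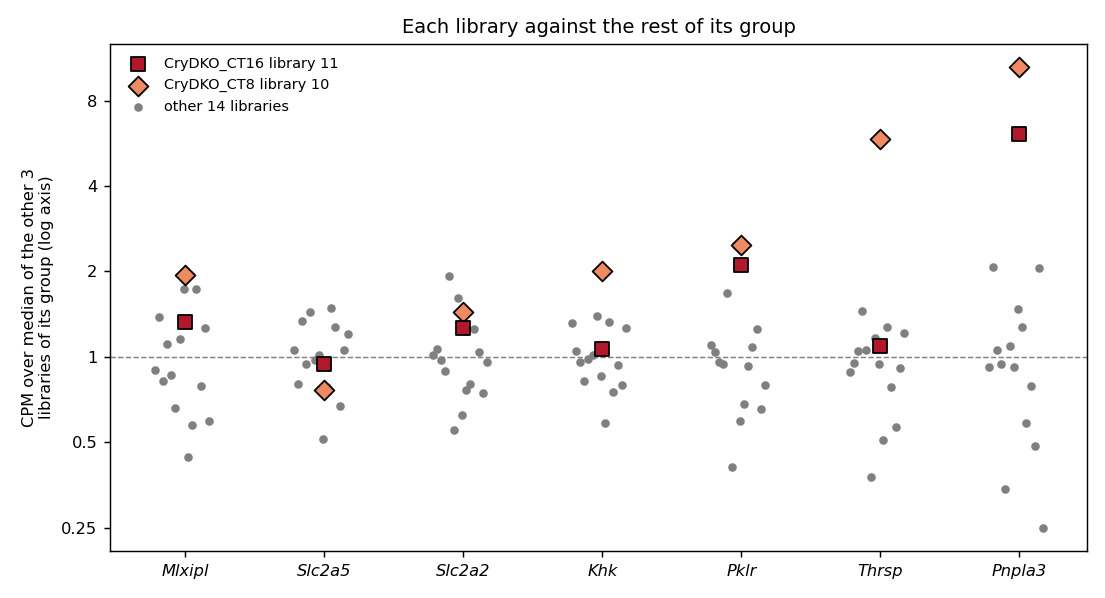
Each library's CPM over the median of the other 3 libraries of its group, on a log axis, for the 7 genes. CryDKO_CT8 library 10 lies highest for Thrsp at 5.85 and for Pnpla3 at 10.5, and CryDKO_CT16 library 11 reaches 6.1 for Pnpla3, while both stay below 1 for Slc2a5.

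Library 10 was the highest of its group in 6 of the 7 genes and the lowest in Slc2a5. In it Khk had 2 times and Pklr 2.47 times the median of the other 3 libraries. The same library had 1824 CPM of Fasn, the fatty acid synthase, against 212 to 403 CPM in the other 3 libraries of CryDKO_CT8. It had 6260 CPM of Scd1, the stearoyl-CoA desaturase, against 138 to 1206 CPM. The 13 lipogenic genes summed to 11250 CPM in it, against 2138 to 3566 CPM in the rest of its group, 2352 to 4529 in CryDKO_CT16, 1805 to 2797 in WT_CT16 and 1869 to 2338 in WT_CT8. The labels name nothing that sets it apart, and what moves these genes in it was not tested.

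Of those 13 lipogenic genes 6 rose, 1 fell and 6 did not pass in CryDKO averaged over times, a share near the 47.1% of all genes called, with a median of 0.66 against -0.01 over all genes. Acacb, the acetyl-CoA carboxylase of the mitochondrial surface, rose by 1.06 ± 0.20 (adjusted p = 0.0004091) and the cytosolic enzyme Acaca by 0.66 ± 0.17 (adjusted p = 0.004121), which was lost with library size alone (adjusted p = 0.06226). Malic enzyme Me1, which supplies NADPH for fat synthesis, fell by 0.75 on the log2 scale (SE 0.15, adjusted p = 0.0005884), with 27.8 to 64.9 CPM in CryDKO and 54.2 to 112 CPM in WT. Without libraries 10 and 11 there were 5 higher and 1 lower and the median was 0.34; with library size alone there were 3 and 1. Among 5 patatin-like phospholipases tested of 7, again near the background share, Pnpla3 and the main triglyceride lipase Pnpla2 rose (0.42 ± 0.12, adjusted p = 0.006056), Pnpla8 fell (-0.29 ± 0.10, adjusted p = 0.01773) and Pnpla7 differed by -0.04 ± 0.11. Pnpla8 lost its call without libraries 10 and 11 (adjusted p = 0.06497) and in 2 other alternatives, and Pnpla2 with library size alone (adjusted p = 0.1025).

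Of 14 known ChREBP targets outside lipogenesis, 5 rose, 2 fell and 7 did not pass in CryDKO averaged over times, a share near the 47.1% of all genes called, with a median of 0.44 against -0.01 over all genes. Transketolase Tkt rose by 0.86 ± 0.13 (adjusted p = 5.222e-05), with 111 to 189 CPM in CryDKO_CT16, 109 to 172 in CryDKO_CT8, 60.4 to 104 in WT_CT16 and 68.4 to 78.5 in WT_CT8. Rgs16, a regulator of G protein signalling, rose by 1.82 ± 0.31 (adjusted p = 0.0003769). Txnip, one of the most glucose-responsive targets known, fell by 1.38 on the log2 scale (SE 0.26, adjusted p = 0.000698), with 22.5 to 58.2 CPM in CryDKO_CT16, 24.4 to 38.1 in CryDKO_CT8, 55.1 to 205 in WT_CT16 and 50.6 to 95.8 in WT_CT8. Txnip fell at both times, by 1.46 at CT16 (adjusted p = 0.01476) and by 1.30 at CT8 (adjusted p = 0.01284). The CT16 call was lost with only the 2 groups fitted (0.05646) and the CT8 call without libraries 10 and 11 (0.05217). Its paralogue Arrdc4 did not pass (0.20 ± 0.19, adjusted p = 0.4139). Klf10, a repressor of sugar-induced genes, was the other gene of the list that fell (-0.83 ± 0.25, adjusted p = 0.01366). With library size alone 4 rose and 2 fell, and without libraries 10 and 11 there were 5 and 1. In none of the 11 lists did a gene pass between times within CryDKO, where 0% of all genes were called by edgeR.

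**Figure D4:**
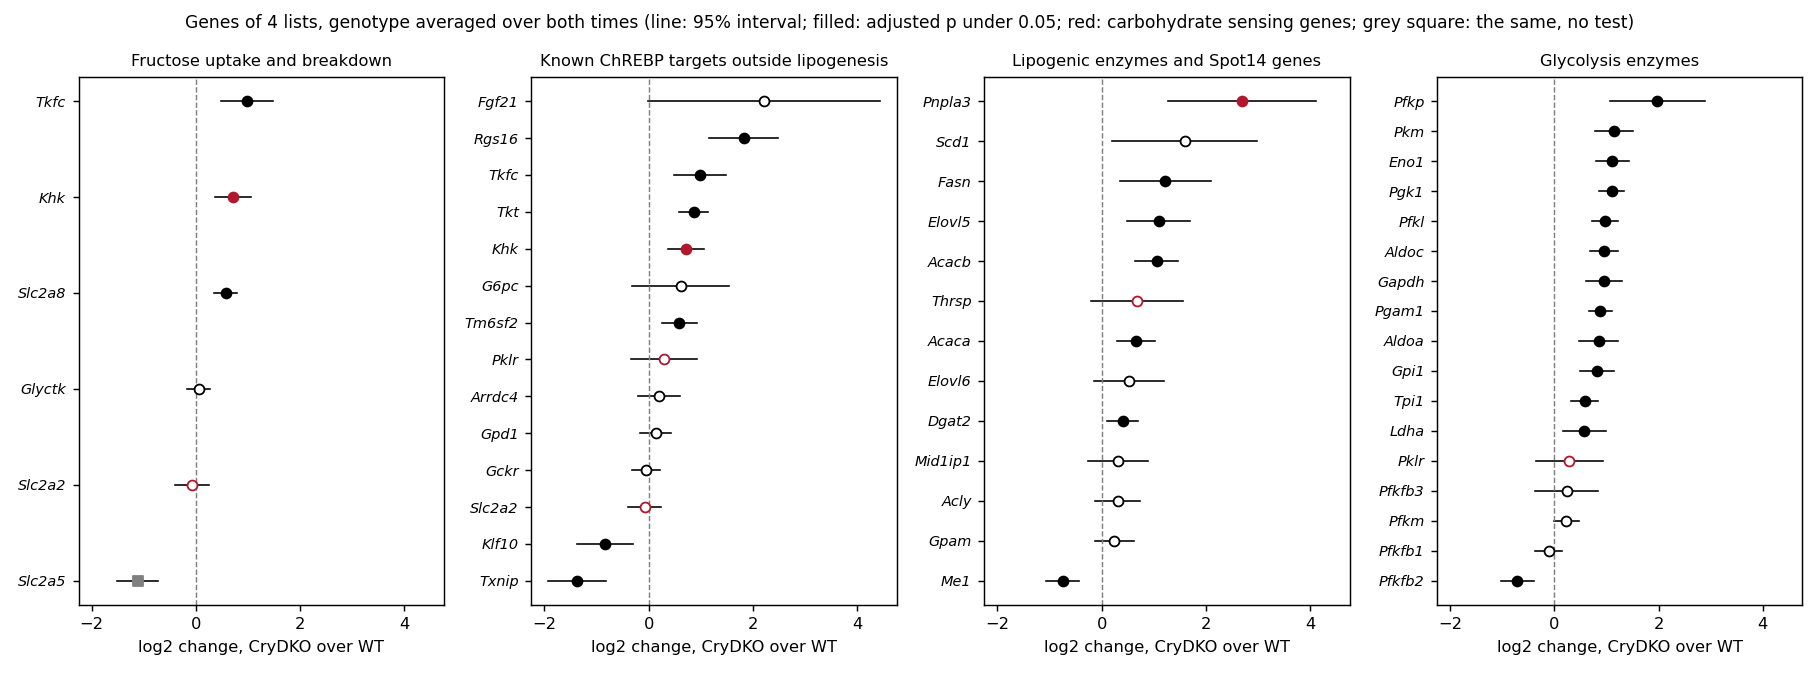
Log2 change of CryDKO over WT averaged over both times, with its 95% interval, for tested genes of 4 lists, of which 1 is not shown; points are filled where adjusted p is under 0.05 and red for the genes followed here, with a grey square for Slc2a5, which carries no test. In glycolysis 12 of 18 genes lie above 0 with filled points, while Txnip, Klf10, Me1 and Pfkfb2 lie below 0 with filled points.

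The 7 genes ranked differently over the 4 groups. By mean CPM per kilobase of exon (GENCODE exons of GRCm38), Khk stood highest in every group, with 311 ± 50.9, 226 ± 93.5, 186 ± 38.9 and 140 ± 25.7 in CryDKO_CT16, CryDKO_CT8, WT_CT16 and WT_CT8 (SD, n = 4 each). Slc2a5 and Pnpla3 stood lowest, Slc2a5 between 0.882 ± 0.181 in CryDKO_CT8 and 3.12 ± 1.17 in WT_CT16, and Pnpla3 between 0.211 ± 0.0975 in WT_CT16 and 2.91 ± 4.1 in CryDKO_CT8. Ordered by mean level, neighbouring groups were separated without overlap only at WT_CT8 over WT_CT16 for Mlxipl and Pnpla3, WT_CT16 over WT_CT8 for Slc2a5, and CryDKO_CT16 over WT_CT16 for Thrsp. No neighbours were separated for Slc2a2, Khk or Pklr.

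Across the 16 libraries the genes whose log2 CPM followed each of the 7 most closely were looked up among 10274 expressed genes, as a description over libraries that share groups and scaling. Mlxipl was followed by Atat1 (Pearson r = 0.968), Stat2 (0.955), Ccdc84 (0.943), Map4k2 (0.940) and Nxf1 (0.939), and Slc2a5 by Necab1 (0.949), Sgms2 (0.945), Fam8a1 (0.936), Scarb2 (0.931) and Tor1aip2 (0.927). With the group means taken out, r stayed between 0.823 and 0.933 for those of Mlxipl and between 0.809 and 0.921 for those of Slc2a5. Closest to Khk were Map3k10 (0.928), Rbfa (0.923) and Slc66a2 (0.918), and closest to Slc2a2 were Pm20d1 (0.837), Mmp15 (0.766) and Dnajc22 (0.760). Pklr was followed by Hcn3 (0.853), the gene that overlaps its end, Cyp2c29 (0.763) and Sall2 (0.751), Thrsp by Zbtb40 (0.841) and Samd1 (0.800), and Pnpla3 by G6pdx (0.891), Cd74 (0.875) and H2-Aa (0.874). Among the 7 themselves the strongest pairs with group means taken out were Slc2a2 with Pklr (0.861) and Pklr with Thrsp (0.720), whereas Mlxipl and Slc2a5 gave -0.457.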

How the data were processed

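Liver RNA was sequenced as 150-base read pairs from 16 libraries, per the labels' protocols. The submitters' processing notes name FastQC, Trimmomatic 0.35, STAR 2.5.3, HTSeq 1.99.2, DESeq2 and build GRCm39 (mm39); the annotation and the strand setting are stated nowhere in the labels or headers. The values used are the raw read counts per gene symbol that the authors deposited; a second table of normalized values was not used, and 0 columns of the count table were left out. Libraries are named by group and by the number in their column name, which runs over the whole series. The chi-square of counts between libraries of a group, divided by its degrees of freedom, was at least 20.2, so none was treated as a copy of another.

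Counts were filtered with filterByExpr and scaled by TMM in edgeR 4.0.16 (R 4.3.3). Its robust quasi-likelihood test used all 16 libraries with 1 coefficient per group, and p-values were adjusted by Benjamini-Hochberg over 14484 genes, with a threshold of 0.05. CPM are counts scaled by library total times TMM factor, and intervals are 95% intervals of the log2 change. Intervals cover the spread between libraries, and their width did not follow read number alone. Averaged over times the SE was 0.66 for Pnpla3 and 0.19 for Slc2a5, both counted from few reads, and 0.41 for Thrsp, counted from more. DESeq2 1.42.0, limma 3.58.1 (voom with quality weights), other scalings, filters and sample sets, and leaving out each library were alternatives; leaving out libraries 10 and 11 together was added after seeing the data. The fits were tested on simulated data. Figures were drawn with Python 3.11.15 and matplotlib 3.10.9.

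Mlxipl and Slc2a5 are given with no test against WT, because the WT libraries chose them and their spread differed between the WT groups, although a test had been planned. Members and gene lists were chosen with earlier results of these data known. From each list up to 4 genes with the lowest p in a comparison were named; other list genes (Mlx, Mlxip, Slc2a9, Glyctk, Sord, Fasn, Scd1, Pfkfb2, Klf10, Arrdc4, Pnpla7 and Fgf21) were named after their values were seen wherever that rule does not take them. For each of the 7 genes the 3 closest genes by Pearson r, or 5 for Mlxipl and Slc2a5, were named among genes with mean log2 CPM of at least 1. Some genes that these rules take are not reported here; counts over lists include them. Exon lengths came from GENCODE vM21 and loci from RefSeq, both on GRCm38.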

Additional observations from a re-analysis of the deposited data

Results flagged for a closer look

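Over the 7 genes and 4 groups, 28 sets of 4 libraries were screened for a library that stands apart from the other 3, and 3 were found; chance gives about 1 in 20. Thrsp was 706.1 CPM in CryDKO_CT8 library 10, against 78.4 to 154 CPM in the other 3 libraries. Pnpla3 was 14.02 CPM in the same library, against 0.996 to 1.70 CPM in the other 3. Pnpla3 was 1.486 CPM in WT_CT8 library 2, against 0.698 to 0.755 CPM in the other 3, and that library also had the highest Mlxipl of the 16, at 891 CPM.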

How the results depend on the processing

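No paired analysis was possible because the column names carry no replicate number that ties a library to a numbered sample of its group. The genotype calls of Khk and Pnpla3 averaged over times kept direction and threshold in every alternative that tested them, 24 for Khk and 23 for Pnpla3. The filter on a mean of at least 50 reads left out Pnpla3. The differences of Mlxipl and Slc2a5, given with no test, kept their direction (-0.87 to -0.48 and -1.35 to -0.999). The other values below depend on the setting, and the cause was not tested. Scaling by library size alone moved the median log2 change of all genes to -0.26 averaged over times, with 1421 higher and 5560 lower genes against 3318 and 3509 with TMM. It moved it to -0.36 at CT8 (961 and 5127 against 2706 and 2943), to -0.16 at CT16 (605 and 1883 against 1303 and 1326), to -0.29 between times in WT (18 and 354 against 179 and 188) and to 0.20 for the interaction.

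Between times within CryDKO the number of genes called was 0, but 14 with DESeq2, 2 with no low count filter and 3 without libraries 10 and 11. Between times in WT it was 1546 with DESeq2, 5194 with voom, 663 with no filter and 712 with only those groups fitted. Khk and Thrsp, which did not pass there in the main fit, passed with voom, where 5194 of 14484 genes were called. Mlxipl and Slc2a5, chosen on that contrast, are not counted. For the interaction the number called was 134 with DESeq2, 961 with voom, 0 with library size alone, 30 with no filter and 1 with a mean of at least 50 reads. Slc2a2, Khk, Pklr, Thrsp and Pnpla3 passed for the interaction in no alternative, and Mlxipl and Slc2a5 carry no test for it. At CT8 none of the genes tested there passed with only those groups fitted or without libraries 10 and 11.

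Signs turned only for values that had not passed. Without libraries 10 and 11, Pklr averaged over times was -0.12; within CryDKO Thrsp was 0.80 and Pnpla3 0.064; at CT8 Slc2a2 was -0.0425, Pklr -0.46 and Thrsp -0.88. With voom, within CryDKO Thrsp was 0.25 and Pnpla3 0.11, at CT8 Pklr was -0.14 and Thrsp -0.41, and the interaction of Khk was -0.22 (-0.0047 with no filter). With library size alone, at CT8 Slc2a2 was -0.27, Pklr -0.32 and Thrsp -0.065. Pklr at CT8 was -0.037 with a mean of at least 50 reads. Mlxipl within CryDKO was -0.037 with library size alone, -0.0022 with no filter, -0.0198 with a mean of at least 50 reads and -0.0148 with only those groups fitted.

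Leaving out 1 library at a time gave 6129 to 6855 genes averaged over times, with 4 of the 7 genes each time. It gave 0 to 3 genes within CryDKO, 4274 to 6112 at CT8 (1 to 3 of the 7) and 1821 to 2742 at CT16 (1 to 4 of the 7). The counts of the 7 include Mlxipl and Slc2a5, which carry no test against WT, so they only describe the fits. Averaged over times, the tested genes among the 4 were Khk and Pnpla3. Between times in WT it gave 0 to 3580 genes, and for the interaction 0 to 568. Members are not counted for either, because the WT difference between times chose Mlxipl and Slc2a5. The ranges that crossed 0 averaged over times and at single times were -0.15 to 0.041 for Slc2a2 averaged, -0.0429 to 0.18 for Slc2a2, -0.46 to 0.26 for Pklr and -0.88 to 0.62 for Thrsp at CT8, and -0.37 to 0.0074 for Slc2a2 and -0.17 to 0.23 for Mlxipl at CT16, and between times in WT -0.41 to 0.20 for Pklr. Within CryDKO they were -0.19 to 0.22 for Mlxipl, -0.0056 to 0.24 for Slc2a5, -0.0141 to 0.22 for Slc2a2, -0.62 to 0.85 for Thrsp and -1.68 to 1.08 for Pnpla3. For the interaction they were -0.16 to 0.34 for Khk and -0.22 to 2.54 for Pnpla3.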

Other observations

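Fgf21, the liver hormone induced by sugar and by fasting, was high in a single library. It stood at 75.2 CPM in CryDKO_CT8 library 9, against 0.384 to 3.32 CPM in the other 15 libraries, and its genotype difference averaged over times was 2.21 ± 1.02 (SE, adjusted p = 0.09394, edgeR). Library 9 had the lowest Mlxipl, Khk, Pklr and Thrsp of its group, at 174, 249, 78.8 and 78.4 CPM.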
